A study of Arabidopsis thaliana with 12 samples.

Results

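The genes encoded on the chloroplast genome of Arabidopsis thaliana were followed across dark-grown and light-grown seedlings of wild type and of a line that silences SNF4. All genes with a chloroplast locus identifier were taken, with 1 probe set a gene (the one with the highest mean over all arrays), and probe sets that match several genes were left out. Of 84 protein-coding chloroplast loci, which carry 78 distinct gene symbols, 69 genes were measured this way among 13356 named genes. Without a probe set of their own were, among others, 7 genes in or reaching into the inverted repeat (rps7, rps12, rpl2, rpl23, ndhB, ycf1 and ycf2). The measured genes comprised 15 subunits of photosystem II, 5 of photosystem I with 2 assembly factors, 6 of the cytochrome b6f complex, 6 of the ATP synthase and 10 of the NDH complex. Rubisco's large subunit, 4 RNA polymerase subunits, 8 and 7 proteins of the small and large ribosomal subunit and 5 other proteins made up the rest.

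Chloroplasts keep a small genome that encodes the cores of the photosynthetic complexes together with part of the machinery that expresses them, while the other subunits are made from nuclear genes and imported. Most plastid genes lie in operons, whose long transcripts are cut into smaller RNAs. They are read by a bacterial-type polymerase whose core is plastid-encoded and by phage-type polymerases encoded in the nucleus. Seedlings grown in darkness hold etioplasts, which turn into chloroplasts on illumination.

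RNA of whole Col-0 seedlings was hybridised to Affymetrix ATH1 arrays, which read each transcript with a set of short probes. The 4 groups of 3 arrays each were wild type and amiR-SNF4 in darkness, and both genotypes in short days (8 h light, 16 h dark). In amiR-SNF4 an estradiol-inducible artificial microRNA targets SNF4, which encodes an activating subunit of SnRK1, a kinase that responds to low energy. Seedlings of all groups, wild type included, grew at 22 °C on 0.5% sucrose with 5 µM β-estradiol and were harvested at 5 days after germination. The growth and harvest protocol in the labels, with the short day and a harvest 4 h after its light began, is the same text for the dark-grown samples, which are dark-grown by their titles and ages. For the light-grown groups the labels also give an age of 7 days after sowing, and the light intensity is 120 in the sample labels and 400 in the series text. The line without inducer and a second silenced line were not among the samples, and SNF4 itself was not analysed here because no named probe set carries it, so effects of the line and of SNF4 loss cannot be told apart. Replicates are labelled biological, but separate cultures are not stated, so the p-values cover the spread between these arrays, which may be technical.

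Levels are given as log2(intensity + 16) after quantile normalization, and differences on the same scale. A level serves to compare 1 gene between groups, not to compare genes with each other, since each probe set has its own brightness. Single values stand in the order of replicates 1, 2 and 3. A gene is said to have risen or fallen where the Benjamini-Hochberg adjusted p of limma's moderated test over all 13356 genes was under 0.05. Errors of differences are standard errors (SE) of that fit, and errors of group means are SD over 3 arrays. Deposited array medians ran from 39.4 to 99.5, so the array scaling matters and its effect is given below. As background, the labelling kit named in the labels starts from oligo(dT), and plastid mRNAs mostly carry no stable poly(A) tail. How this shaped the plastid signals was not tested. In whole seedlings, fewer plastid-rich cells and less plastid RNA per cell cannot be told apart.

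Growth in light went with rises of some plastid genes and falls of others, and the NDH complex stood on the low side as a group. In wild type 30 of the 69 genes differed between light and darkness, 13 higher and 17 lower (43.5%, against 34.9% of all named genes, 18.4% higher and 16.4% lower). In amiR-SNF4 31 differed, 11 higher and 20 lower (44.9%, against 33.6% of all named genes, 17.7% higher and 15.9% lower). The largest fall in wild type was that of rps15, 5.96-fold lower in light, and the largest rise that of psbA, 2.94-fold higher. The median difference was 0.07 in wild type and -0.15 in amiR-SNF4, and the range -2.58 to 1.55 and -3.75 to 1.45. The median in amiR-SNF4 was 0.16 without replicate 1 of its light-grown arrays, -0.52 without replicate 3 of them and -0.40 without replicate 1 of its dark-grown arrays, and it was between -0.08 and -0.05 without any other array of amiR-SNF4. In wild type it ran from 0.02 to 0.19 with 1 array left out, at the low end without replicate 1 or 3 of dark-grown wild type and above 0.15 without replicate 2 of dark-grown or replicate 1 or 2 of light-grown wild type. The arrays of darkness and light did not overlap for 36 genes in wild type and 32 in amiR-SNF4, against 46% and 45.6% of all named genes.

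The light differences of the genotypes rest on separate arrays and ran in parallel. Over the 69 genes Pearson's r between them was 0.96 and Spearman's rho 0.93, a description across genes, which are not independent. Replicates of 1 group also varied along this pattern. The departure of an array from its group mean had an r of -0.54 to 0.55 with the light differences of the other genotype. In 65 genes the sign was the same, the exceptions being atpI, rps4, cemA and ccsA, none of which changed in either genotype. Of the called genes 25 were shared in the same direction, 83.3% of those in wild type and 80.7% of those in amiR-SNF4. Over all named genes r was 0.70, and the shared calls made up 60.1% and 62.3%. The difference between the light effects of the genotypes, which is the same contrast as that between the amiR-SNF4 effects in light and darkness, passed the test for 0 of the 69 genes in limma, against 7.98% of all named genes, and 4 had an unadjusted p under 0.05 (psbA, rbcL, psbD and cemA), against 20.9% of all named genes.

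The direction of a light difference depended in part on how the arrays were scaled. Without normalization between arrays the median of all named genes moved to 0.28 in wild type and 0.16 in amiR-SNF4. With scaling to the hybridization controls it moved to 0.54 and 0.62. These spiked controls are RNAs added to the hybridization mix, so they do not follow the amount or labelling of the seedling RNA. The plastid median moved further than that of all genes in wild type, to 0.71 and 1.12, and to 0.16 and 0.82 in amiR-SNF4. The calls in wild type were then 27 higher and 4 lower without normalization, and 38 higher and 3 lower with the spiked controls. In amiR-SNF4 they were 18 higher and 11 lower, and 34 higher and 7 lower. Without normalization 32% of all named genes were called in wild type and 24.4% in amiR-SNF4, counting both directions. Changes below are those after quantile normalization, and the distance of the plastid median from that of all genes is itself set by the scaling. Called in the same direction under all 4 other normalizations were 15 of the 30 genes in wild type and 17 of the 31 in amiR-SNF4.

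**Figure D1:**
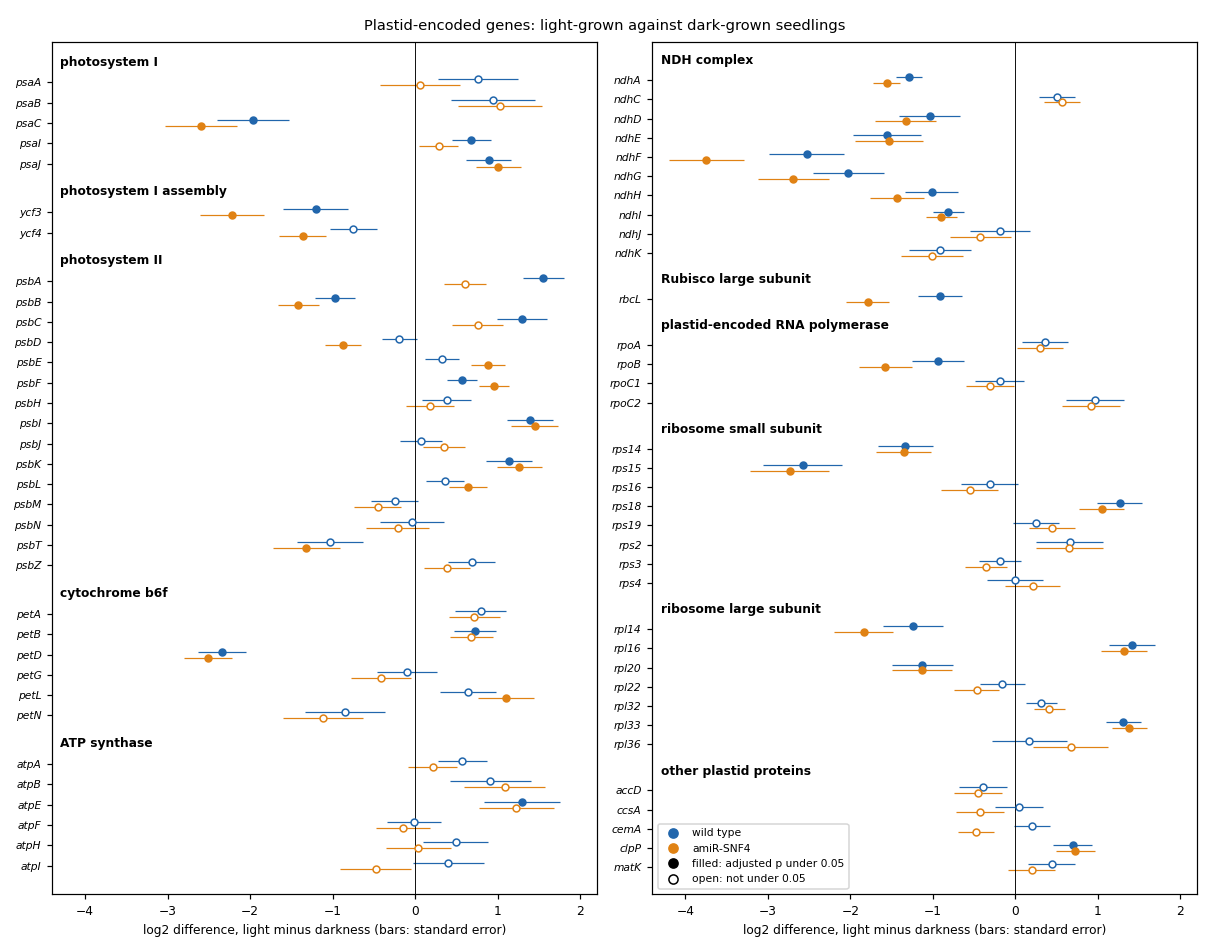
Log2 difference between light-grown and dark-grown seedlings for each of the 69 plastid-encoded genes, by complex, in wild type (blue) and amiR-SNF4 (orange), with SE as bars and filled points at adjusted p under 0.05. NDH genes other than ndhC lie below 0 in both genotypes, 9 of 10, while with scaling to the hybridization controls 7 of 10 do.

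In photosystem I, psaC parted from the other subunits. PsaC, the protein that carries the terminal iron-sulphur clusters, was lower in light, while psaI and psaJ, small membrane subunits, were higher in wild type. psaC read 8.18, 8.41 and 7.30 in dark-grown wild type, 7.38, 8.25 and 8.95 in dark-grown amiR-SNF4, 6.35, 5.32 and 6.32 in light-grown wild type and 5.02, 5.50 and 6.27 in light-grown amiR-SNF4. All light arrays were below all dark arrays of their genotype. It fell by 1.97 ± 0.44 (adjusted p = 0.00339) in wild type and by 2.60 ± 0.44 (adjusted p = 0.000531) in amiR-SNF4. Scaled to the spiked controls, wild type differed by -1.21, which no longer passed the test.

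psaB encodes a reaction centre protein. It read 10.30, 11.65 and 11.95 in dark-grown wild type, 11.34, 12.21 and 9.90 in dark-grown amiR-SNF4, 12.45, 11.83 and 12.47 in light-grown wild type and 12.11, 11.90 and 12.53 in light-grown amiR-SNF4. The dark arrays spread widely, by an SD of 0.88 in wild type and 1.17 in amiR-SNF4, and overlapped with the light arrays, so the light differences of 0.95 ± 0.51 and 1.03 ± 0.51 did not pass. Its partner psaA differed by 0.76 ± 0.48 and 0.05 ± 0.48. psaI read 8.77, 9.16 and 9.09 in dark-grown wild type and 10.03, 9.21 and 9.83 in light-grown wild type, a rise of 0.68 ± 0.24 (adjusted p = 0.0413), and in amiR-SNF4 8.67, 9.03 and 8.84 in darkness and 8.82, 8.96 and 9.61 in light. The wild-type groups were set apart by a gap of 0.05 between single arrays, and the amiR-SNF4 groups overlapped. The psaI rise in wild type passed in 14 of the 24 alternative runs. psaJ rose by 0.89 ± 0.27 and 1.01 ± 0.27.

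Both plastid assembly factors of photosystem I lay lower in light, except that under the spiked controls 1 of the 2, ycf4, lay above 0 in wild type. ycf3 read 9.83, 10.19 and 9.72 in dark-grown wild type, 9.36, 10.21 and 10.54 in dark-grown amiR-SNF4, 8.97, 7.81 and 9.34 in light-grown wild type and 7.75, 7.32 and 8.38 in light-grown amiR-SNF4. It fell by 1.21 ± 0.39 (adjusted p = 0.0291) in wild type and by 2.22 ± 0.39 (adjusted p = 0.000745) in amiR-SNF4, without overlap in either. ycf4 read 9.28, 9.61 and 9.12 in dark-grown wild type, 8.996, 9.50 and 9.93 in dark-grown amiR-SNF4, 9.01, 8.06 and 8.70 in light-grown wild type and 7.73, 8.11 and 8.50 in light-grown amiR-SNF4. The light and dark arrays of each genotype stood apart. Its fall of 1.36 ± 0.28 in amiR-SNF4 passed (adjusted p = 0.00239), and the difference of -0.75 ± 0.28 in wild type did not (adjusted p = 0.0576). Under that scaling the median of both genes in wild type was -0.02 and neither was called there.

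Photosystem II held the largest rise. Of its 15 genes 5 rose and 1 fell with light in wild type (psbA, psbC, psbF, psbI and psbK against psbB), and 5 rose and 3 fell in amiR-SNF4 (psbE, psbF, psbI, psbK and psbL against psbB, psbD and psbT). The rise of psbL passed in 11 of the 24 alternative runs. The called share was 40% in wild type and 53.3% in amiR-SNF4, against 34.9% and 33.6% of all named genes. In wild type 18.4% of all named genes rose and 16.4% fell, and in amiR-SNF4 17.7% rose and 15.9% fell. psbA, which encodes the rapidly replaced D1 protein of the reaction centre, read 8.03, 8.31 and 7.74 in dark-grown wild type and 9.75, 9.28 and 9.70 in light-grown wild type. In amiR-SNF4 it read 7.65, 8.07 and 8.58 in darkness and 8.35, 8.72 and 9.05 in light. The wild-type groups were 0.98 apart at their nearest arrays, and the amiR-SNF4 groups overlapped. The rise was 1.55 ± 0.25 (adjusted p = 0.000354) in wild type, and the difference in amiR-SNF4 was 0.60 ± 0.25 (adjusted p = 0.0828). In light psbA was lower in amiR-SNF4 than in wild type, by a fall of 0.87 ± 0.25 (adjusted p = 0.0269), with no overlap, and in darkness the genotypes differed by 0.08 ± 0.25. The difference between these genotype effects, -0.95 ± 0.35, did not pass (adjusted p = 0.136).

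psbD and psbC, for the D2 protein and the antenna protein CP43, lie in 1 operon. psbC rose 2.46-fold in wild type (adjusted p = 0.0052), while psbD differed by -0.19 ± 0.22 there and fell by 0.88 ± 0.22 (adjusted p = 0.0069) in amiR-SNF4. The psbD difference in amiR-SNF4 was 0.06 with the spiked controls. psbB, for the antenna protein CP47, fell by 0.98 ± 0.24 and 1.42 ± 0.24, and with the spiked controls its differences of -0.02 and -0.46 did not pass. The neighbouring small subunits psbI and psbK rose in both genotypes, by 1.39 ± 0.28 and 1.45 ± 0.28 for psbI and by 1.14 ± 0.28 and 1.26 ± 0.28 for psbK.

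In light psbD was also among the genes lower in amiR-SNF4. Its arrays read 8.28, 7.60 and 8.39 in light-grown wild type against 7.39, 7.36 and 7.36 in light-grown amiR-SNF4, a fall of 0.72 ± 0.22 (adjusted p = 0.0339). The dark arrays of both genotypes lay together, with a difference of -0.03 ± 0.22.

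psbE and psbF encode the α and β chains of cytochrome b559 and were the 2 plastid genes that differed between genotypes in darkness. psbE read 10.35, 10.35 and 10.45 in dark-grown wild type and 9.31, 9.87 and 10.08 in dark-grown amiR-SNF4, against 10.51, 10.55 and 11.07 in light-grown wild type and 10.71, 10.41 and 10.80 in light-grown amiR-SNF4. The dark groups did not overlap, whereas the light groups did. It fell by 0.63 ± 0.21 (adjusted p = 0.0349) with silencing in darkness, and psbF by 0.53 ± 0.18 (adjusted p = 0.0411). Differences in light were -0.07 ± 0.21 for psbE and -0.14 ± 0.18 for psbF. psbL and psbJ, the other genes of this operon, differed in darkness by -0.43 ± 0.23 and -0.47 ± 0.26 and did not pass.

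psbM, a small subunit at the dimer interface, has the brightest of the photosystem II probe sets. It read 11.89, 12.44 and 11.90 in dark-grown wild type, 12.37, 12.72 and 12.38 in dark-grown amiR-SNF4, 12.18, 11.31 and 11.99 in light-grown wild type and 11.38, 12.37 and 12.36 in light-grown amiR-SNF4. The groups overlapped in every comparison and no difference passed.

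**Figure D2:**
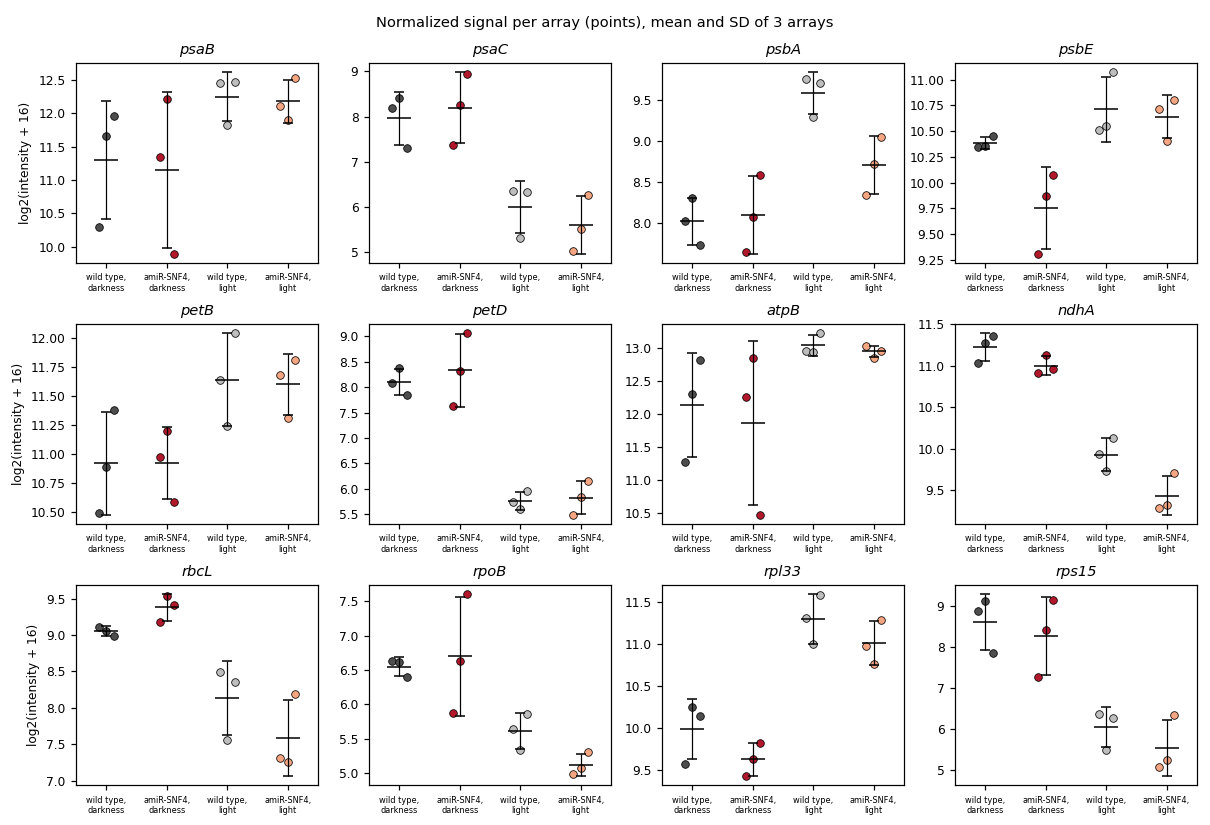
Normalized signal, log2(intensity + 16), of 12 plastid-encoded genes on each array (points), with the mean and SD of the 3 arrays of a group. psaC, petD, ndhA, rbcL, rpoB and rps15 are lower on every light array than on every dark array of the same genotype and rpl33 is higher, whereas psaB and petB overlap in wild type.

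The cytochrome b6f complex split into petB and petD, neighbours on 1 operon. petD, for subunit IV, read 8.08, 8.37 and 7.85 in dark-grown wild type, 7.63, 8.31 and 9.06 in dark-grown amiR-SNF4, 5.73, 5.59 and 5.95 in light-grown wild type and 5.49, 5.84 and 6.14 in light-grown amiR-SNF4. Dark and light were at least 1.48 apart at their nearest arrays in both genotypes. The fall was 2.34 ± 0.30 (adjusted p = 5.17e-05) and 2.51 ± 0.30 (adjusted p = 3.49e-05), 5.07-fold and 5.70-fold, and it passed under every alternative run. petB, for cytochrome b6, read 10.49, 10.89 and 11.38 in dark-grown wild type, 10.98, 11.20 and 10.58 in dark-grown amiR-SNF4, 11.64, 11.25 and 12.04 in light-grown wild type and 11.68, 11.31 and 11.82 in light-grown amiR-SNF4. It rose by 0.72 ± 0.26 (adjusted p = 0.0442) in wild type, where 1 dark array lay above 1 light array, and differed by 0.68 ± 0.26 (adjusted p = 0.0574) in amiR-SNF4. The petB rise in wild type passed in 13 of the 24 alternative runs.

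petA, for cytochrome f, read 9.57, 10.02 and 10.45 in dark-grown wild type, 9.76, 10.39 and 9.20 in dark-grown amiR-SNF4, 10.99, 10.53 and 10.90 in light-grown wild type and 10.41, 10.13 and 10.97 in light-grown amiR-SNF4. The differences of 0.79 ± 0.31 and 0.72 ± 0.31 did not pass. petL, a small subunit, read 8.25, 8.78 and 8.40 in dark-grown wild type, 7.74, 7.81 and 8.90 in dark-grown amiR-SNF4, 8.76, 9.15 and 9.45 in light-grown wild type and 8.79, 9.05 and 9.92 in light-grown amiR-SNF4. It rose 2.15-fold in amiR-SNF4 (adjusted p = 0.0221), although 1 dark array lay within the light range. Between genotypes the 6 genes of the complex differed by -0.33 to 0.34 in darkness and -0.30 to 0.13 in light, with 0 called in either. Among all named genes 30.8% and 19.1% were called.

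Of the 6 ATP synthase genes atpE alone rose, and in wild type. The called share was 16.7% in wild type and 0% in amiR-SNF4, against 34.9% and 33.6% of all named genes. atpE, for the ε subunit that restrains the enzyme in darkness, read 11.04, 11.98 and 12.37 in dark-grown wild type, 12.02, 12.64 and 10.37 in dark-grown amiR-SNF4, 12.91, 13.23 and 13.14 in light-grown wild type and 12.94, 12.91 and 12.86 in light-grown amiR-SNF4. The rise was 1.29 ± 0.46 (adjusted p = 0.043), and the difference in amiR-SNF4 1.23 ± 0.46 (adjusted p = 0.0554). With each array scaled to the same median the difference in wild type was 1.06 and did not pass. atpB, its operon partner for the catalytic β subunit, read 11.27, 12.31 and 12.82 in dark-grown wild type, 12.26, 12.86 and 10.48 in dark-grown amiR-SNF4, 12.96, 12.94 and 13.23 in light-grown wild type and 13.03, 12.86 and 12.96 in light-grown amiR-SNF4. Dark replicates of both genes differed by up to 2.38 between arrays while light replicates differed by up to 0.31.

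The lowest dark arrays of the atpB and atpE pair were replicate 1 of wild type and replicate 3 of amiR-SNF4, which were also the lowest dark arrays for psaB. atpA, for the α subunit, is in another operon and read 9.02, 9.38 and 8.999 in dark-grown wild type, 8.33, 9.13 and 9.22 in dark-grown amiR-SNF4, 10.11, 9.26 and 9.74 in light-grown wild type and 8.80, 8.82 and 9.68 in light-grown amiR-SNF4. Its groups overlapped throughout. The membrane subunits atpF, atpH and atpI differed with light by -0.01 to 0.49 in wild type and -0.48 to 0.04 in amiR-SNF4, and none passed.

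The NDH complex, which feeds electrons back into the chain around photosystem I, ran low in light. Of its 10 measured genes 7 fell with light in wild type and the same number in amiR-SNF4, where 16.4% and 15.9% of all named genes fell. The 7 were the same genes in both, ndhA, ndhD, ndhE, ndhF, ndhG, ndhH and ndhI. The median difference was -1.02 in wild type and -1.38 in amiR-SNF4, and 9 of 10 were below 0 in each, ndhC being the exception, where 50.8% and 50.6% of all named genes were below 0. Under the spiked controls 7 of 10 were below 0 in each genotype, the medians were -0.15 and -0.37, and 1 and 2 genes were called lower.

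ndhF had the widest difference, 5.78-fold in wild type and 13.4-fold in amiR-SNF4. It read 9.04, 9.08 and 7.92 in dark-grown wild type, 8.41, 9.32 and 9.63 in dark-grown amiR-SNF4, 6.07, 5.39 and 6.99 in light-grown wild type and 5.32, 4.81 and 5.99 in light-grown amiR-SNF4. It fell by 2.53 ± 0.45 and fell by 3.75 ± 0.45, and both passed under every alternative run. The difference between them, -1.22 ± 0.64, did not pass (adjusted p = 0.311). ndhA read 11.03, 11.28 and 11.36 in dark-grown wild type, 10.91, 11.13 and 10.96 in dark-grown amiR-SNF4, 9.94, 9.73 and 10.13 in light-grown wild type and 9.29, 9.32 and 9.70 in light-grown amiR-SNF4. Its SD was 0.11 to 0.23 over the groups, and it fell by 1.29 ± 0.16 (adjusted p = 4.3e-05) and 1.56 ± 0.16 (adjusted p = 1.14e-05). The differences of -0.33 and -0.38 with the spiked controls did not pass.

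In light ndhA was also lower in amiR-SNF4, by a fall of 0.49 ± 0.16 (adjusted p = 0.0462), with a gap of 0.03 between the nearest arrays. ndhI, whose probe set is the brightest of the complex, read 11.89, 12.21 and 12.30 in dark-grown wild type, 11.99, 12.16 and 11.91 in dark-grown amiR-SNF4, 11.41, 11.06 and 11.49 in light-grown wild type and 11.06, 10.82 and 11.48 in light-grown amiR-SNF4. It fell by 0.81 ± 0.19 and 0.90 ± 0.19, and with the spiked controls it was higher in light, by 0.17 and 0.28. The remaining genes, ndhC, ndhJ and ndhK, form an operon of their own, and their differences of 0.51, -0.18 and -0.91 in wild type did not pass.

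rbcL, for the large subunit of the carbon-fixing enzyme Rubisco, was lower in light in both genotypes, except that under the spiked controls it was level in wild type, at 0.02. It read 9.12, 9.06 and 8.98 in dark-grown wild type, 9.18, 9.54 and 9.41 in dark-grown amiR-SNF4, 8.50, 7.55 and 8.35 in light-grown wild type and 7.31, 7.26 and 8.19 in light-grown amiR-SNF4. In darkness all amiR-SNF4 arrays lay above all wild-type arrays, by 0.33 ± 0.27 in the mean, which did not pass, and in light the groups overlapped at -0.55 ± 0.27. The fall with light was 0.92 ± 0.27 (adjusted p = 0.0166) in wild type and 1.79 ± 0.27 (adjusted p = 0.000207) in amiR-SNF4. The spiked controls gave -0.82 in amiR-SNF4, which still passed.

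The core of the plastid-encoded RNA polymerase did not move as 1 unit. rpoB, for the β subunit, read 6.63, 6.62 and 6.39 in dark-grown wild type, 5.87, 6.63 and 7.60 in dark-grown amiR-SNF4, 5.64, 5.34 and 5.86 in light-grown wild type and 4.99, 5.08 and 5.30 in light-grown amiR-SNF4. Light arrays were below dark arrays in both genotypes, and in light amiR-SNF4 was below wild type without overlap, at -0.49 ± 0.32, which did not pass. The falls with light were 0.94 ± 0.32 (adjusted p = 0.0368) and 1.57 ± 0.32 (adjusted p = 0.00199). Under the spiked controls the differences were -0.25 and -0.86 and did not pass. rpoC2, the last gene of the same operon, differed by 0.96 ± 0.35 (adjusted p = 0.051) and 0.92 ± 0.35 in the other direction, and rpoC1 by -0.19 ± 0.29 and -0.30 ± 0.29.

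rpoA, for the α subunit, lies in the ribosomal protein cluster. It read 9.78, 10.35 and 10.26 in dark-grown wild type, 9.25, 9.92 and 10.003 in dark-grown amiR-SNF4, 10.09, 10.34 and 11.02 in light-grown wild type and 10.01, 9.65 and 10.39 in light-grown amiR-SNF4. All 4 groups overlapped in the comparisons made. Genes known in tobacco to be read mainly by the nuclear-encoded polymerase, of which accD and the rpoB operon were measured here, had a median light difference of -0.29 in wild type and -0.38 in amiR-SNF4, with rpoB called lower in each. These medians were 0.64 and 0.58 with the spiked controls.

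Ribosomal protein genes changed in both directions. Of the 8 small-subunit genes rps18 rose and rps14 and rps15 fell, in both genotypes. That was 37.5% in each, near the 34.9% and 33.6% of all named genes. rps15 read 8.87, 9.13 and 7.85 in dark-grown wild type, 7.26, 8.42 and 9.15 in dark-grown amiR-SNF4, 6.36, 5.49 and 6.27 in light-grown wild type and 5.06, 5.24 and 6.33 in light-grown amiR-SNF4. Dark and light arrays were at least 0.93 apart, and the differences of -2.58 ± 0.48 (adjusted p = 0.00102) and -2.74 ± 0.48 (adjusted p = 0.000705) passed under every alternative run. rps18 rose by 1.27 ± 0.27 and 1.05 ± 0.27, likewise under every alternative run. rps14 fell by 1.33 ± 0.33 and 1.36 ± 0.33, and with the spiked controls its differences of -0.56 and -0.49 did not pass.

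rps3 and rps19 showed no light response that passed. rps3 read 10.52, 10.96 and 11.18 in dark-grown wild type, 10.62, 10.99 and 10.41 in dark-grown amiR-SNF4, 10.37, 10.56 and 11.18 in light-grown wild type and 10.31, 9.96 and 10.69 in light-grown amiR-SNF4. rps19 read 9.76, 10.20 and 10.62 in dark-grown wild type, 9.62, 10.24 and 9.26 in dark-grown amiR-SNF4, 10.43, 10.10 and 10.80 in light-grown wild type and 10.13, 9.88 and 10.44 in light-grown amiR-SNF4. The groups of both genes overlapped in every comparison.

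Of the 7 large-subunit genes rpl16 and rpl33 rose, and rpl14 and rpl20 fell, in both genotypes. That was 57.1% in each, against 34.9% of all named genes in wild type and 33.6% in amiR-SNF4. rpl33 read 9.58, 10.25 and 10.15 in dark-grown wild type, 9.44, 9.64 and 9.83 in dark-grown amiR-SNF4, 11.32, 10.999 and 11.59 in light-grown wild type and 10.98, 10.77 and 11.30 in light-grown amiR-SNF4. It rose by 1.31 ± 0.21 (adjusted p = 0.000375) and 1.38 ± 0.21 (adjusted p = 0.00028), and rpl16 by 1.41 ± 0.28 and 1.32 ± 0.28. rpl14 fell by 1.24 ± 0.36 and 1.84 ± 0.36 and rpl20 by 1.13 ± 0.37 in each, and with the spiked controls these differences were -0.29 and -0.86 for rpl14 and -0.25 and -0.20 for rpl20 and did not pass.

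rpl22 and rpl32 stayed without a call in every comparison. rpl22 read 9.996, 10.57 and 10.82 in dark-grown wild type, 10.33, 10.44 and 9.82 in dark-grown amiR-SNF4, 9.92, 10.14 and 10.85 in light-grown wild type and 9.65, 9.51 and 10.01 in light-grown amiR-SNF4. rpl32 read 9.75, 10.12 and 9.88 in dark-grown wild type, 9.59, 9.87 and 9.17 in dark-grown amiR-SNF4, 10.24, 9.9995 and 10.46 in light-grown wild type and 9.92, 9.84 and 10.11 in light-grown amiR-SNF4. Taking both ribosomal subunits, 14 of 15 genes had a lower mean in amiR-SNF4 than in wild type in darkness and 14 of 15 in light. Among all named genes 53.2% and 55.3% were below 0. The ribosomal medians were -0.23 and -0.30, and the median of each subunit stayed below 0 under the other scalings. In limma 0 of 15 passed in either, and 0 had an unadjusted p under 0.05, against 39.6% of all named genes in darkness and 29.9% in light. The shift of whole arrays given below moves with these signs, and its part was not tested.

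Among the other plastid genes clpP, for the proteolytic subunit of the Clp protease, rose with light in both genotypes. It read 9.66, 10.04 and 10.08 in dark-grown wild type, 9.63, 10.06 and 9.61 in dark-grown amiR-SNF4, 10.98, 10.28 and 10.62 in light-grown wild type and 10.62, 10.02 and 10.85 in light-grown amiR-SNF4. The rises were 0.70 ± 0.24 (adjusted p = 0.0352) and 0.73 ± 0.24 (adjusted p = 0.0307), with overlap in amiR-SNF4. They passed in 17 of the 24 alternative runs in each genotype. cemA, for an envelope membrane protein, read 9.65, 10.13 and 10.51 in dark-grown wild type, 10.08, 9.93 and 10.17 in dark-grown amiR-SNF4, 10.25, 10.13 and 10.51 in light-grown wild type and 9.47, 9.34 and 9.95 in light-grown amiR-SNF4. It was lower in amiR-SNF4 in light, by a fall of 0.71 ± 0.22 (adjusted p = 0.0361), with no overlap, and differed by -0.04 ± 0.22 in darkness.

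ccsA, which attaches haem to c-type cytochromes, read 10.65, 11.10 and 10.71 in dark-grown wild type, 10.04, 10.54 and 11.28 in dark-grown amiR-SNF4, 10.99, 10.90 and 10.71 in light-grown wild type and 10.01, 9.85 and 10.73 in light-grown amiR-SNF4. Its difference of -0.67 ± 0.29 in light did not pass. matK, for a splicing maturase, and accD, for a subunit of acetyl-CoA carboxylase, differed by at most 0.45 in size in any comparison.

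The light response followed position on the genome in 1 stretch and broke within others. All 7 genes of the operon that runs from ndhH through ndhA, ndhI, ndhG, ndhE and psaC to ndhD fell with light in both genotypes, by 0.81 to 2.02 in wild type and by 0.90 to 2.69 in amiR-SNF4. Of these, 6 of 7 were still below 0 with the spiked controls in each genotype. Under that scaling, however, no gene of this operon was called lower in wild type, and only ndhG and psaC were in amiR-SNF4. Among all named genes 16.4% fell with light in wild type and 15.9% in amiR-SNF4 after quantile normalization. ndhF and rps15, on either side of that operon, fell too, while rpl32 and ccsA, which lie between ndhF and ndhD, did not pass.

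**Figure D3:**
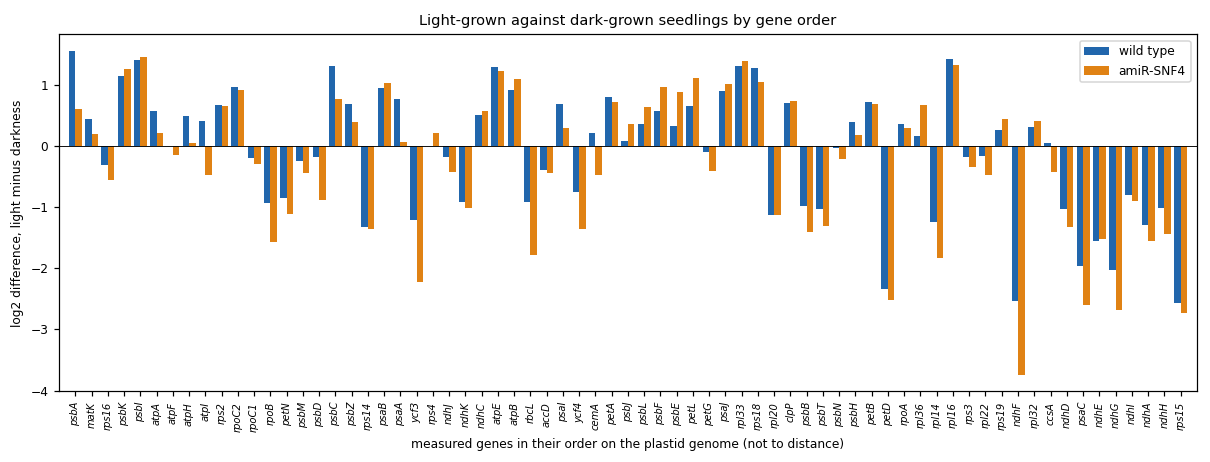
Log2 difference between light-grown and dark-grown seedlings (bars, wild type blue and amiR-SNF4 orange) for the 69 measured genes in their order on the plastid genome, without distances. The run from ndhD to rps15 on the right lies below 0 throughout, except that ndhI is above 0 with scaling to the hybridization controls, and elsewhere neighbours often have opposite signs, as at petB and petD.

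The difference between 2 neighbouring genes of an operon on the same array was followed from darkness to light. It shows unequal change of the pair only. Of 34 neighbouring measured pairs in 11 operons, the dark and light arrays did not overlap in 20 pairs in wild type and 27 in amiR-SNF4, and the light differences of the pair had opposite signs in 14 and 15. The change exceeded 1 log2 unit in 11 and 16 pairs. With 3 arrays against 3, the smallest p an exact two-sided permutation test can give is 0.1, which these non-overlapping pairs reached. Taken singly, 46% of all named genes did not overlap between darkness and light in wild type and 45.6% in amiR-SNF4. Pairs of genes outside operons were not compared, so whether operon neighbours differ from such pairs was not tested.

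The petB minus petD difference was 3.06 greater in light than in darkness, and 3.19 greater in amiR-SNF4. That of rpl14 minus rpl16 moved by -2.65 and -3.15, and that of rps14 minus psaB by -2.28 and -2.39. For psbD minus psbC the move was -1.49 and -1.64. In all 4 pairs the dark and light arrays stood apart in both genotypes. The moves were 0.06 and -0.10 for psbB minus psbT, 0.25 and 0.07 for psbF minus psbE and -0.02 and 0.12 for rps3 minus rpl22, all with overlap. Where the probes lie within each gene was not analysed here.

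**Figure D4:**
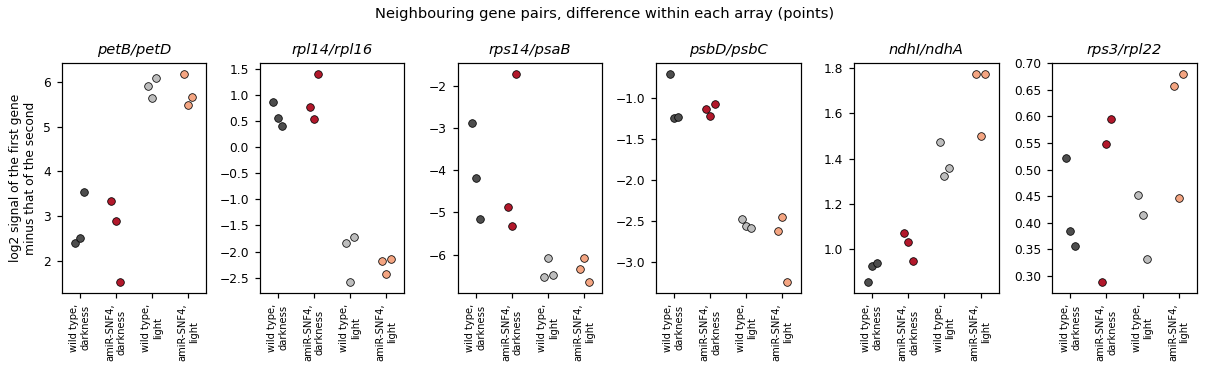
Difference in log2 signal between 2 neighbouring plastid genes on each array (points) in the 4 groups, where only the change between groups can be read, since each probe set has its own brightness. The petB/petD, rpl14/rpl16, rps14/psaB, psbD/psbC and ndhI/ndhA pairs separate dark from light arrays in both genotypes, and rps3/rpl22 does not.

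Between genotypes few plastid genes differed. In darkness 2 of 69 fell in amiR-SNF4 (psbE and psbF) and 0 rose, where 30.8% of all named genes were called, 16.5% lower and 14.3% higher. In light 4 fell (psbA, psbD, cemA and ndhA) and 0 rose, where 19.1% of all named genes were called, 9.95% lower and 9.14% higher. The median difference was -0.09 in darkness and -0.30 in light. In darkness it was 0.12 without replicate 1 of amiR-SNF4 and 0.03 without replicate 2 of wild type, and between -0.20 and -0.12 without any other dark array. In light it ran from -0.16 without replicate 3 of wild type to -0.57 without replicate 3 of amiR-SNF4, and was -0.47 without replicate 2 of wild type and -0.20 and -0.19 without replicate 1 and 2 of amiR-SNF4. Of the 69 genes 48 and 58 were below 0, against 53.2% and 55.3% of all named genes. Arrays of the genotypes did not overlap in 3 plastid genes in darkness and 5 in light, against 37% and 40.4% of all named genes. The genotype differences in darkness and light rest on separate arrays and had an r of -0.06 over the 69 genes, against 0.72 over all named genes. The median size of the plastid differences was 0.155 in darkness and 0.295 in light, with a median SE of 0.295. For all named genes it was 0.306 and 0.233, with a median SE of 0.185. With plastid differences mostly no larger than their SE, this r cannot show whether the effects in darkness and light are unlike.

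Whether these 6 genes passed depended on single arrays and on the scaling, while their sign was the same in all 24 settings run. Over those settings the difference ran from -0.79 to -0.41 for psbE, -0.62 to -0.38 for psbF, -1.05 to -0.69 for psbA, -0.97 to -0.57 for psbD, -0.90 to -0.59 for cemA and -0.65 to -0.39 for ndhA. Without normalization the counts were 0 in darkness and 2 in light, and with the spiked controls 0 and 0. Leaving out replicate 1 or 3 of dark-grown wild type, or replicate 1 of dark-grown amiR-SNF4, left 0 calls in darkness. It left 1 without replicate 2 of dark-grown wild type, replicate 3 of dark-grown amiR-SNF4, or replicate 1 of either light-grown group, which share the fit. Leaving out replicate 1 or 3 of light-grown wild type, or replicate 1 or 2 of light-grown amiR-SNF4, left 0 in light, and leaving out replicate 2 of light-grown wild type gave 7.

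Plastid genes moved together from array to array within a group. Replicate 3 of light-grown amiR-SNF4 was the highest of its group for 64 of 69 genes, replicate 2 of light-grown wild type the lowest for 59 and replicate 1 of dark-grown amiR-SNF4 the lowest for 54. The count of genes below 0 between genotypes is therefore no count of independent measurements. In light it ran from 47 to 68 when 1 array of those groups was left out, the ends coming without replicate 3 and without replicate 2 of light-grown wild type. In darkness it ran from 25 to 56, with 25 without replicate 1 of dark-grown amiR-SNF4 and 32 without replicate 2 of dark-grown wild type. The median within-group SD of the plastid genes was 0.35 to 0.49 over the groups, against 0.15 to 0.25 for all named genes, and the median SE of a difference was 0.295 against 0.185, although 68 of the 69 were brighter than the median named gene.

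**Figure D5:**
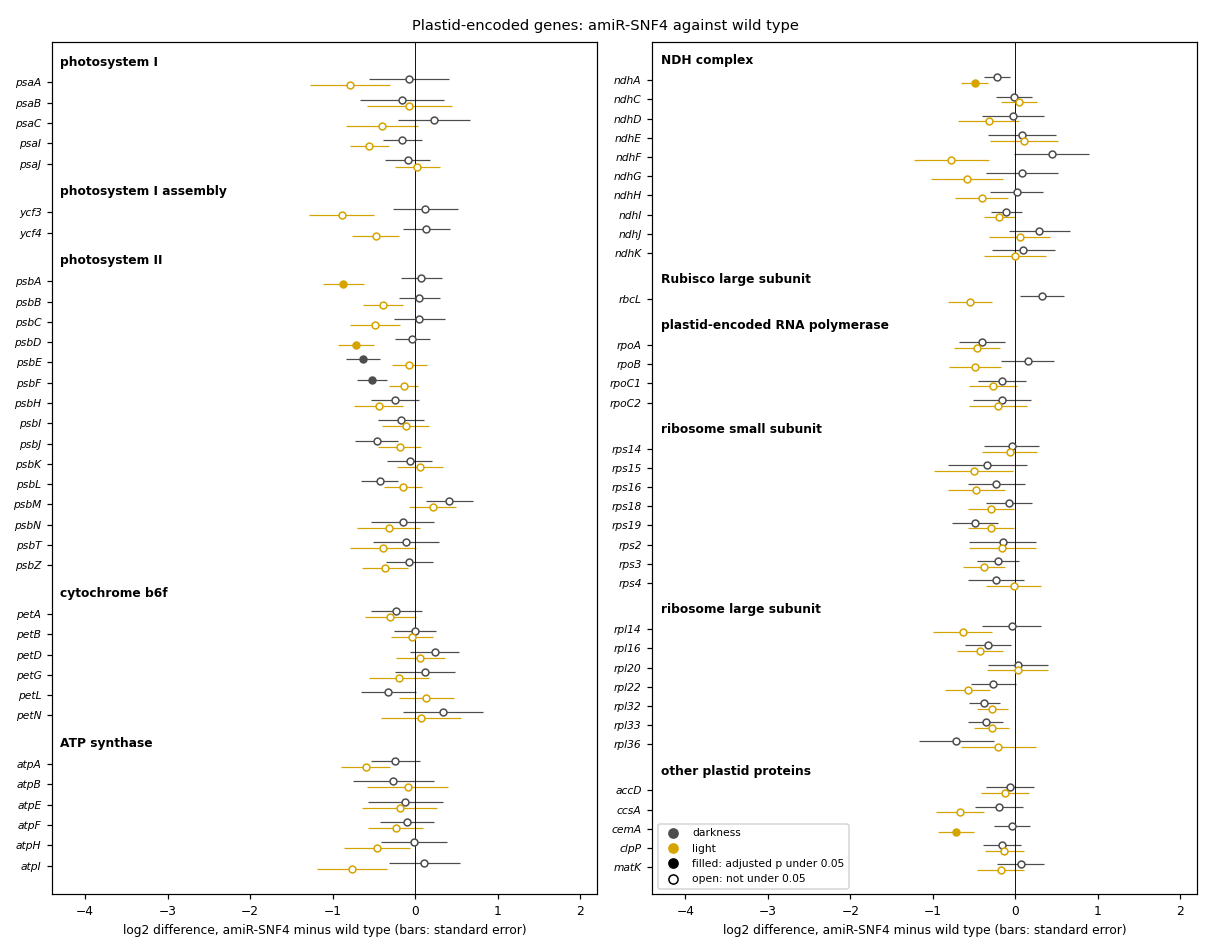
Log2 difference between amiR-SNF4 and wild type for each plastid-encoded gene, by complex, in darkness (grey) and light (yellow), with SE as bars and filled points at adjusted p under 0.05. psbE and psbF in darkness and psbA, psbD, cemA and ndhA in light are the filled points, all below 0, and 58 of 69 light values lie below 0, or 57 to 66 under the other scalings.

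The share of the summed deposited signal of all named genes held by the 69 plastid genes was taken before any normalization. It was 2.44, 3.43 and 3.33% in dark-grown wild type, 2.37, 3.30 and 2.64% in dark-grown amiR-SNF4, 4.10, 3.15 and 4.45% in light-grown wild type and 3.04, 2.86 and 3.83% in light-grown amiR-SNF4. The groups overlapped in every comparison. Dark-grown and light-grown wild type had means of 3.06% ± 0.54 and 3.90% ± 0.67 (SD, n = 3). The difference of 0.836 percentage points had p = 0.3, and that of 0.473 points in amiR-SNF4 had p = 0.4, both in an exact two-sided permutation test whose smallest p is 0.1. amiR-SNF4 lay 0.295 points lower in darkness (exact permutation p = 0.5) and 0.658 points lower in light (exact permutation p = 0.2). On quantile-normalized intensities the difference in darkness was -0.163 points (exact permutation p = 1).

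Nuclear genes encode other subunits of the same complexes. Of 35 listed, 8 were measured, and all 8 rose with light in both genotypes, by a median of 1.21 and 1.76. Among all named genes 18.4% rose in wild type and 17.7% in amiR-SNF4. NDHL and NDHN, nuclear subunits of the NDH complex, rose by 2.21 ± 0.21 and 2.25 ± 0.22 in wild type and by 2.82 ± 0.21 and 2.22 ± 0.22 in amiR-SNF4. NDHL read 7.51, 7.92 and 7.59 in dark-grown wild type, 5.77, 6.74 and 6.22 in dark-grown amiR-SNF4, 9.95, 10.03 and 9.67 in light-grown wild type and 9.03, 8.99 and 9.18 in light-grown amiR-SNF4. Its 4 groups were all separate, with the light arrays above the dark ones. In darkness all 8 nuclear genes fell in amiR-SNF4, by a median of 0.95 in size, and in light 3 did (PSAN, NDHL and NDHN). Among all named genes 16.5% fell in darkness and 9.95% in light. PSAN, a lumenal photosystem I subunit, fell by 1.20 ± 0.20 in darkness and by 0.67 ± 0.20 in light. With so few listed genes measured, these 8 do not stand for the whole list.

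Of 31 listed nuclear genes for plastid transcription 1 was measured, AT5G15700 (RPOTMP), a phage-type polymerase of plastids and mitochondria. It read 4.55, 4.57 and 4.53 in dark-grown wild type, 5.69, 5.66 and 5.63 in dark-grown amiR-SNF4, 4.93, 5.04 and 5.49 in light-grown wild type and 5.63, 5.45 and 5.79 in light-grown amiR-SNF4. In darkness amiR-SNF4 lay above wild type by a rise of 1.11 ± 0.15 (adjusted p = 0.000104), and in light by 0.47 ± 0.15, which did not pass (adjusted p = 0.0504). All its levels were below the median of 6.10 over named genes.

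Of 33 listed nuclear genes for plastid RNA processing and stability 10 were measured, 7 rose with light in wild type and 6 in amiR-SNF4, and none fell, where 18.4% and 17.7% of all named genes rose. Between genotypes 3 of 10 fell in darkness and 2 of 10 in light, where 16.5% and 9.95% of all named genes fell. CRR22, an editing factor for ndh transcripts, rose by 1.63 ± 0.22 and 0.94 ± 0.22. It was lower in amiR-SNF4 in light, by a fall of 0.84 ± 0.22 (adjusted p = 0.0176). CRR21, another ndh editing factor, fell by 0.65 ± 0.18 in darkness and by 0.58 ± 0.18 in light. AT2G37220 (CP29B), an RNA-binding protein, fell by 0.96 ± 0.24 in darkness and CRR28 by 0.81 ± 0.25. CAF1, a splicing factor, rose with light by 0.94 ± 0.22 and 0.68 ± 0.22.

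The 16 measured genes of the mitochondrial genome served as a comparison. With light 6 fell and 0 rose in wild type, and 5 fell and 0 rose in amiR-SNF4, with medians of -0.59 and -0.57. The called shares, 37.5% and 31.2%, were all falls, where 16.4% and 15.9% of all named genes fell. The mitochondrial genes were not followed under the other scalings. With the spiked controls the median of all named genes moved to 0.54 in wild type and 0.62 in amiR-SNF4, so these falls may depend on the scaling. Between genotypes 2 of 16 passed in darkness (12.5%, against 30.8% of all named genes), cox2 with a rise of 1.00 ± 0.24 and ccb382 with a fall of 0.75 ± 0.23, and 0 in light, where 0 also had an unadjusted p under 0.05 in limma.

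Markers of tissue and growth were thinly covered: 0 of 3 for dark growth, 1 of 8 for green tissue and 3 of 6 for roots. LHCB4.2, a light-harvesting gene, read 11.42, 11.92 and 11.76 in dark-grown wild type and 9.79, 9.63 and 9.51 in light-grown wild type, and was thus lower in light, by a fall of 2.06 ± 0.23, the direction opposite to that of the 8 nuclear subunit genes above. With 1 green and no dark-growth marker measured, the labels of light and darkness could not be checked further. In amiR-SNF4 it read 9.15, 10.16 and 9.34 in darkness and 8.73, 8.63 and 8.49 in light. The root markers EXPA7, EXPA18 and PYK10 differed with light by 0.76, 0.62 and 0.10 in wild type. Between genotypes the green marker fell in amiR-SNF4, by 2.15 in darkness and by 1.03 in light. The 3 root markers had lower means in amiR-SNF4 in both conditions, with differences of -0.47, -1.12 and -0.17 in darkness and -0.37, -0.62 and -0.40 in light, of which that of EXPA18 in darkness passed (adjusted p = 0.00101). Ratios of 3′ to 5′ signal, a mark of RNA quality, ran over the arrays from 1.01 to 1.70 for GAPDH, 6.96 to 13.1 for actin and 1.75 to 3.42 for ubiquitin. The actin ratio was 7.52 ± 0.85 in dark-grown and 11.5 ± 1.59 in light-grown wild type (SD, n = 3, exact permutation p = 0.1), and the ubiquitin ratio in light was 2.91 ± 0.658 in wild type and 2.03 ± 0.045 in amiR-SNF4 (SD, n = 3, exact permutation p = 0.1). In darkness the genotypes also stood apart, without overlap, in the ratios of GAPDH, 1.45 in wild type and 1.16 in amiR-SNF4, and of ubiquitin, 2.38 and 2.00, each with an exact permutation p = 0.1. The part of the markers and of RNA quality in the differences above, those of psbE and psbF in darkness included, was not tested.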

How the data were processed

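Intensities of Affymetrix ATH1 arrays were used as deposited, 1 linear value per probe set and array, made with GCOS per the submitters' processing notes, with no version. RNA (1 µg) was labelled with a MessageAmp II-Biotin Enhanced kit per the labels' protocols. No source used here says whether the deposited intensities had been scaled. Array medians differed 2.52-fold, so they were treated as not normalized. The precision is limited by the number of arrays.

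From these, 22746 non-control probe sets of 22810 were quantile-normalized as log2 values, and tests used log2(intensity + 16), which understates changes of dim genes. Probe sets naming 1 gene (13513) were kept and those naming several (503) or none (8730) were left out, 1 probe set a gene gave 13356 genes, and 13286 were found in the TAIR10.1 gene table, which gave names and gene order. All 12 arrays entered 1 limma 3.58.1 fit in R 4.3.3 with 4 group means, 5 contrasts and Benjamini-Hochberg adjustment over all genes. The fit was tested on simulated data. Array values are given, per complex, for the gene with the highest mean and those with the smallest p in each genotype comparison and in the light comparison of wild type; other plastid genes are named by group. Of each nuclear list, the 3 genes with the smallest p in a comparison may be named. Members, lists and tests were chosen with earlier results of these data known.

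Alternatives covered normalization, the added constant, dim genes, probe set choice, samples fitted, array weights, the replicate number as a block, inverted-repeat probe sets and each array left out. Same-numbered arrays did not deviate together and no arrays were identical.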

Additional observations from a re-analysis of the deposited data

How the results depend on the processing

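The plastid-encoded genes called between genotypes in darkness (2) numbered 0 without normalization between arrays, with hybridization control scaling, with a constant of 1 in place of 16, with only the groups compared in the fit and with array weights. Those called in light (4) numbered 2, 0, 0, 3 and 5 under the same settings. The cause was not tested, except that the smaller fit holds fewer arrays. Leaving out 1 array gave 0 to 2 calls in darkness, 0 to 7 in light, 0 to 0 for the difference between these effects, 20 to 34 for light against darkness in wild type and 26 to 34 in amiR-SNF4. The 20 came without replicate 2 of dark-grown wild type. For light against darkness, the counts over the other settings were 20 (constant of 1) to 41 (hybridization control scaling) in wild type and 28 to 41 in amiR-SNF4, within 1.5 times 30 and 31. Of the called genes 10 in wild type and 14 in amiR-SNF4 stayed called in the same direction under all 24 settings, and 4 differences reversed, all with hybridization control scaling: rbcL (0.0204) and ndhI (0.17) in wild type and psbD (0.0625) and ndhI (0.28) in amiR-SNF4. The plastid share kept its direction throughout, with ranges over left-out arrays of -0.607 to -0.0968 between genotypes in darkness, -1.03 to -0.384 in light, 0.524 to 1.21 for light in wild type and 0.179 to 0.737 in amiR-SNF4; with all probe sets in the denominator the differences were -0.105, -0.261, 0.385 and 0.229.

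Arrays with the same replicate number share only that number: their deviations correlated from -0.33 to 0.20 (median 0.01, 4 of 18 pairs over 0.1), and 4 of 12 arrays correlated best with their own number. With the replicate block the counts were 2, 4, 0, 29 and 31 for genotype in darkness, genotype in light, their difference and light in wild type and amiR-SNF4. Signal over background was not used here.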

Other observations

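Genes in or reaching into the inverted repeat, a stretch with 2 copies on the plastid genome, were read by 8 probe sets for 7 genes, left out above. Added to the fit after the data were seen, 2 of the 8 fell with light in wild type and 2 in amiR-SNF4, and 0 rose. In the main fit 16.4% and 15.9% of all named genes fell. ycf2, a large gene that plants need for survival, fell by 2.30 ± 0.26 in wild type (adjusted p = 2.15e-05) and by 2.41 ± 0.26 in amiR-SNF4 (adjusted p = 1.84e-05). rpl23, for a protein of the large ribosomal subunit, fell by 1.16 ± 0.22 in wild type and differed by -0.47 ± 0.22 in amiR-SNF4. ndhB, the NDH gene missing from the 10 above, fell by 0.95 ± 0.34 (adjusted p = 0.0494) in amiR-SNF4 and differed by -0.92 ± 0.34 (adjusted p = 0.0543) in wild type. rpl2, rps7, ycf1 and both rps12 probe sets differed by -0.49 to 0.21 with light and did not pass. Between genotypes 0 of the 8 passed limma's test in darkness or light, with 1 at an unadjusted p under 0.05 in darkness, rpl23 at -0.52 ± 0.22, and 0 in light. In the main fit 30.8% and 19.1% of all named genes were called.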
